A study of Rattus norvegicus with 7 samples.

Results

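The genes described here are those of the NRF2 pathway, of glutathione and thioredoxin metabolism and of the enzymes that remove reactive oxygen species, measured by RNA sequencing in rat meibomian glands. They were taken by symbol from a list of 39 genes, chosen with earlier results of these data known. Of these, 35 were among the 17246 genes read from the deposited tables, and Gstm2, Srxn1, Prdx6 and Pgd were not analysed here. The meibomian gland is the holocrine gland of the eyelid that makes the lipid layer of the tear film. All libraries came from wild-type female Sprague-Dawley rats aged 3 months. The 4 control libraries are listed as untreated. The 3 UVB libraries came from rats whose shaved upper lids received ultraviolet B at 300 mJ/cm2 over 5 min each day for 5 days. The same protocol text stands under every library, so whether the controls were shaved is not stated, nor is the interval between the last exposure and dissection. Each table column carries a number of its own besides the group, but nothing states whether it marks an animal, so p-values measure only the spread between these libraries.

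NRF2, encoded by Nfe2l2, is a transcription factor that is held in the cytoplasm and sent for degradation by KEAP1 until oxidants or electrophiles modify KEAP1. In the nucleus it pairs with small MAF proteins on antioxidant response elements and raises genes for glutathione synthesis, quinone reduction, thioredoxin reduction and the supply of NADPH. Much of the control of NRF2 acts on the protein, so its own mRNA need not move when its targets do. In skin, ultraviolet light is a classical source of reactive oxygen species.

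After UVB, 12 of the 35 genes were higher and 1 was lower in edgeR's quasi-likelihood test (adjusted p under 0.05), while 22 did not pass. All 35 had passed the filter on low counts. The 12 make 34.3% of these genes, beside 6.30% of all 13709 genes tested that were higher. The 1 gene makes 2.86%, beside 6.74% of all genes that were lower. The higher genes were Nqo1, Gss, Gsta4, Gstm1, Txn1, Gpx1, Gpx2, Gpx3, Sod1, Sod2, Sod3 and Tkt, and the lower gene was Gsta1. The median log2 fold change was 0.19 over the 35 and -0.0058 over all genes tested. None of the 13 changed by 2-fold or more. TPM values of the groups did not overlap for 19 of the 35, 16 higher and 3 lower (54.3%), beside 26.2% of all genes. Nfe2l2, Keap1, Hmox1, Gclc, Gclm and Txnrd1 were among the 22. Nqo1, a standard readout of NRF2, and Gpx2, an NRF2 target, were among the 12. NRF2 activity was not tested. In a bulk tissue, more cells of a type and more RNA per cell cannot be told apart, which holds for every difference below.

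**Figure D1:**
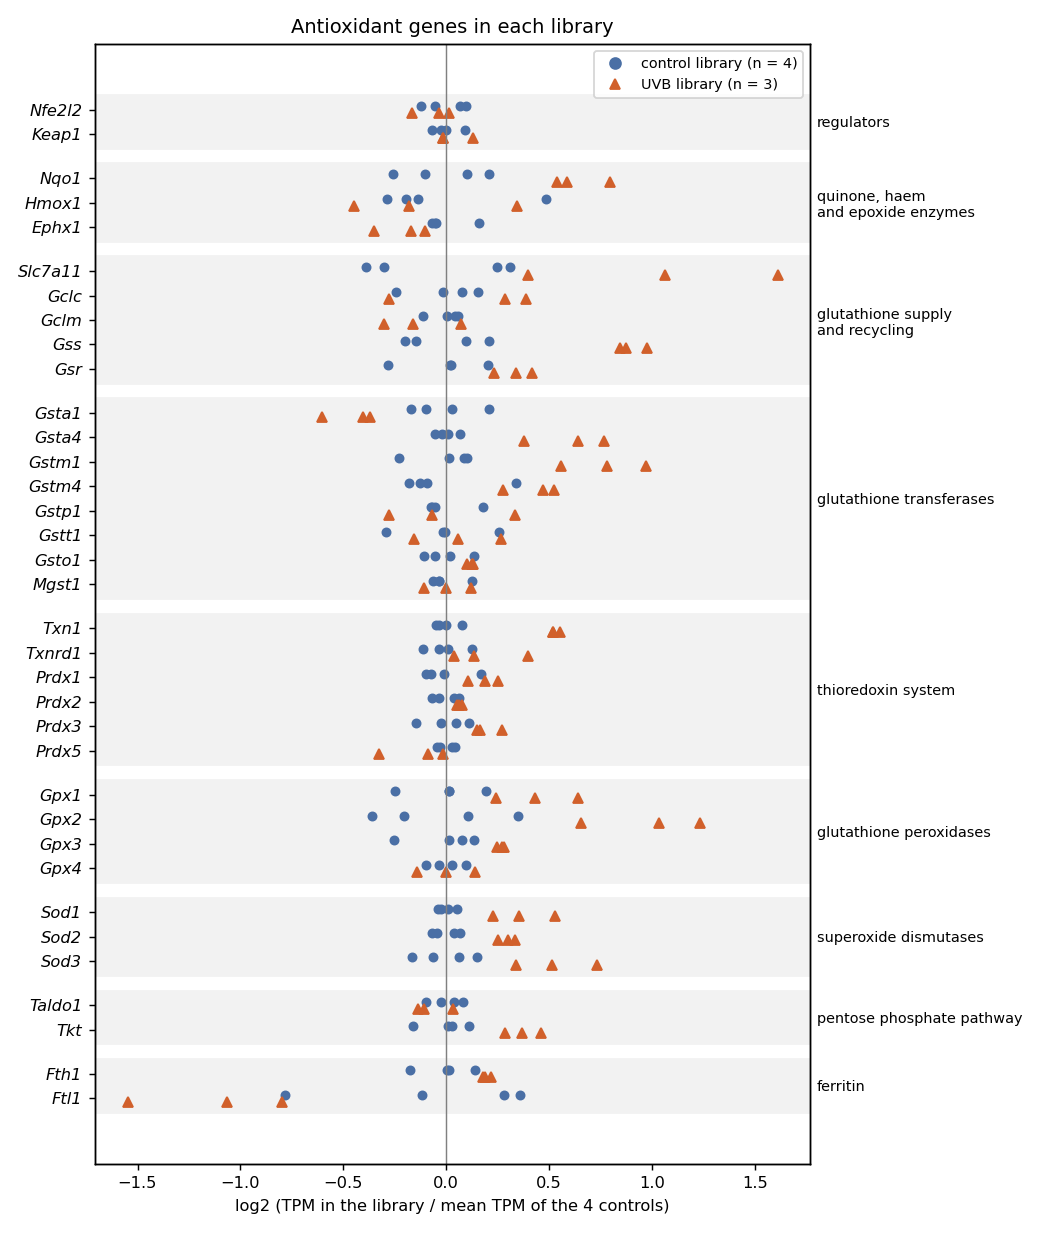
Each point is 1 library: circles are the 4 controls and triangles the 3 UVB libraries, on an axis of log2 of the TPM in that library over the mean TPM of the controls, with genes grouped by role. The UVB triangles lie to the right of every control circle for all 3 superoxide dismutases, while those of Nfe2l2, Keap1, Mgst1 and Gpx4 overlap the circles.

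The antioxidant response element has the core letters TGACNNNGC, where N is any base. Windows of 300 bases, from 250 before to 50 after the start of the RefSeq gene model (assembly GRCr8), were found for 29 of the 35 genes, all but Hmox1, Gsr, Gstt1, Sod3, Fth1 and Ftl1. The core was present on either strand in 10 of the 29 (34.5%), against 12.1% of the 33469 windows in the table. A gene counted if any of its windows held the core, and 3 genes had more than 1 window, whereas the 33469 windows were counted singly. Of the 11 genes higher after UVB that had a window, 2 held the core (18.2%). With an A required after it, the core was in 4 of 29 (13.8%), against 3.00% of all windows, and in none of the 11. The windows below are shown because they set these 2 genes beside carriers that did not pass the test. Each is in GRCr8, reads 5′ to 3′ on the strand of its gene and stops before the start site, with the core in capitals. Where the core lies on the opposite strand, its reverse complement is what is printed.

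Gpx2, higher after UVB, chr6:101230034-101230071, minus strand: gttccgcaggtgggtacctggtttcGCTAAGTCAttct
Sod2, higher after UVB, chr1:50050170-50050228, minus strand: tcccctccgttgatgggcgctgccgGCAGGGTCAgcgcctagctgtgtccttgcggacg
Gclm, did not pass, chr2:213031938-213031996, plus strand: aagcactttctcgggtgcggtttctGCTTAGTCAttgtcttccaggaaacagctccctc
Txnrd1, did not pass, chr7:22755949-22756007, minus strand: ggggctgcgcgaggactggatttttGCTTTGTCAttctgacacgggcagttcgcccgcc
Gstp1, did not pass, chr1:210769733-210769791, minus strand: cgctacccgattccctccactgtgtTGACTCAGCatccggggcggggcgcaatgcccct
Prdx1, did not pass, chr5:135383746-135383804, plus strand: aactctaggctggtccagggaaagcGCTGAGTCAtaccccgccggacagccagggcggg
Ephx1, did not pass, chr13:95263141-95263199, minus strand: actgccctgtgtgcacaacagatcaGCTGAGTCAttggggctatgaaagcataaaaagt

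The windows of Gstp1, Prdx1 and Ephx1 share the same core letters, TGACTCAGC, found in 0.415% of all windows. Those letters also contain TGACTCA, the site of the AP-1 factors, which was in 4 of the 29 genes (13.8%) and in 4.63% of all windows. The remaining carriers of the core were Nfe2l2, Gsta1 and Prdx5, where it lay at or after the start. A match describes these letters and is not a binding site. Letters outside the 300 bases were not read, so a gene without a match here may hold the core elsewhere.

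The regulators did not pass the test. Nfe2l2 (NCBI gene 83619) measured 67.3, 74.7, 64.3 and 73.4 TPM in control a to d and 62.2, 70.7 and 68.3 TPM in UVB a to c. TPM is transcript abundance corrected for length, so TPM levels can be set side by side between genes. Its groups overlapped, with a log2 fold change of -0.064 (edgeR SE 0.082 and adjusted p = 0.646). Keap1, the repressor that targets NRF2 for degradation, measured 58.2, 52.2, 54.5 and 53.7 TPM in the controls and 54.1, 59.8 and 54.1 TPM after UVB. Its groups overlapped as well (log2 fold change 0.029, SE 0.071, adjusted p = 0.822), and its sign changed to -0.028 without UVB b. In mRNA, Nfe2l2 was the more abundant of the pair in every library. It made 53.6% to 58.9% of the summed TPM of both in the controls and 53.5% to 55.8% after UVB.

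Among the enzymes that act on quinones, haem and epoxides, 1 of 3 rose. Nqo1, a reductase that turns quinones into hydroquinones and a standard readout of NRF2, measured 50.4, 39.2, 43.7 and 54.3 TPM in the controls and 70.5, 81.5 and 68.2 TPM after UVB. Every UVB library lay above every control, with a log2 fold change of 0.64 (edgeR SE 0.12 and adjusted p = 0.0124) and a fold of 1.56. Hmox1, the inducible oxygenase that breaks down haem, measured 86.9, 56.5, 50.9 and 54.3 TPM in the controls and 45.5, 54.8 and 79.0 TPM after UVB. Control a and UVB c were each high within their group and the ranges overlapped, and the log2 fold change was -0.061 (SE 0.25, adjusted p = 0.902). It became 0.15 without control a, 0.11 without UVB a and -0.31 without UVB c, with no call in any of these. Ephx1, the microsomal epoxide hydrolase, was at 50.1 ± 3.93 TPM (SD, n = 4) in controls and 43.6 ± 3.80 TPM (SD, n = 3) after UVB. Its groups did not overlap, yet it did not pass (log2 fold change -0.21, SE 0.089, adjusted p = 0.156). Its counts were fractional in all 7 libraries, meaning that some reads were assigned to it in part. Each count was close to a whole number, from 811.98 in UVB a to 1372.93 in control c. How many reads were shared is not given.

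Glutathione is made in 2 steps from amino acids, and its supply genes moved unevenly, with 1 of 5 past the threshold. Gss, glutathione synthetase, which performs the last step, measured 14.2, 18.7, 14.7 and 17.4 TPM in the controls and 29.7, 29.1 and 31.9 TPM after UVB. All UVB libraries exceeded all controls, at a log2 fold change of 0.89 (edgeR SE 0.11 and adjusted p = 0.00267), a fold of 1.86. Gss overlaps Myh7b in GRCr8, and whether counting used strand is unknown. Myh7b was at 0.545 TPM in controls and 0.563 TPM after UVB.

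The first step is run by glutamate-cysteine ligase, whose catalytic subunit is Gclc and whose modifier subunit is Gclm. Gclc measured 59.3, 44.9, 52.6 and 56.2 TPM in the controls and 43.9, 69.6 and 65.0 TPM after UVB. UVB a was below every control and the other UVB libraries above every control, and the log2 fold change was 0.16 (edgeR SE 0.17 and adjusted p = 0.579). Leaving out UVB a gave 0.34, and leaving out UVB b gave 0.022. Gclm measured 76.8, 75.9, 68.2 and 74.0 TPM in the controls and 59.9, 77.4 and 65.8 TPM after UVB, with a log2 fold change of -0.13 (SE 0.10, adjusted p = 0.436). UVB a again held the lowest value of the 7.

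Slc7a11, which encodes the cystine importer that feeds glutathione synthesis, was scarce, at 2.24, 2.34, 1.53 and 1.44 TPM in the controls and 2.49, 3.95 and 5.77 TPM after UVB. The UVB libraries lay above the controls in TPM but spread widely, and in normalised counts the groups overlapped. Its log2 fold change was 0.94 (edgeR SE 0.29 and adjusted p = 0.0683), which passed without UVB a (1.19, adjusted p = 0.0297) and was 0.58 without UVB c. Gsr, the reductase that regenerates glutathione from its disulfide, measured 12.7, 17.8, 15.7 and 15.7 TPM in the controls and 19.6, 18.2 and 20.7 TPM after UVB. The groups did not overlap, with a log2 fold change of 0.35 (SE 0.11, adjusted p = 0.0607), and it passed without control b (0.42, adjusted p = 0.0405).

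Because the genes for the steps moved unevenly, their ratio moved too. The TPM ratio of Gss to Gclm was 0.220 ± 0.0273 (SD, n = 4) in the controls, and after UVB it was 0.452 ± 0.0662 (SD, n = 3), with no overlap between groups. The ratio of Gss to the catalytic subunit Gclc was 0.311 ± 0.0763 and 0.529 ± 0.134, and its groups nearly touched, with control b at 0.417 and UVB b at 0.418. The ratio of Gclc to Gclm was 0.724 ± 0.0882 (SD, n = 4) and 0.873 ± 0.129 (SD, n = 3), and its groups overlapped. These ratios, 8 in all, were chosen after the values were seen and are given without a test.

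**Figure D2:**
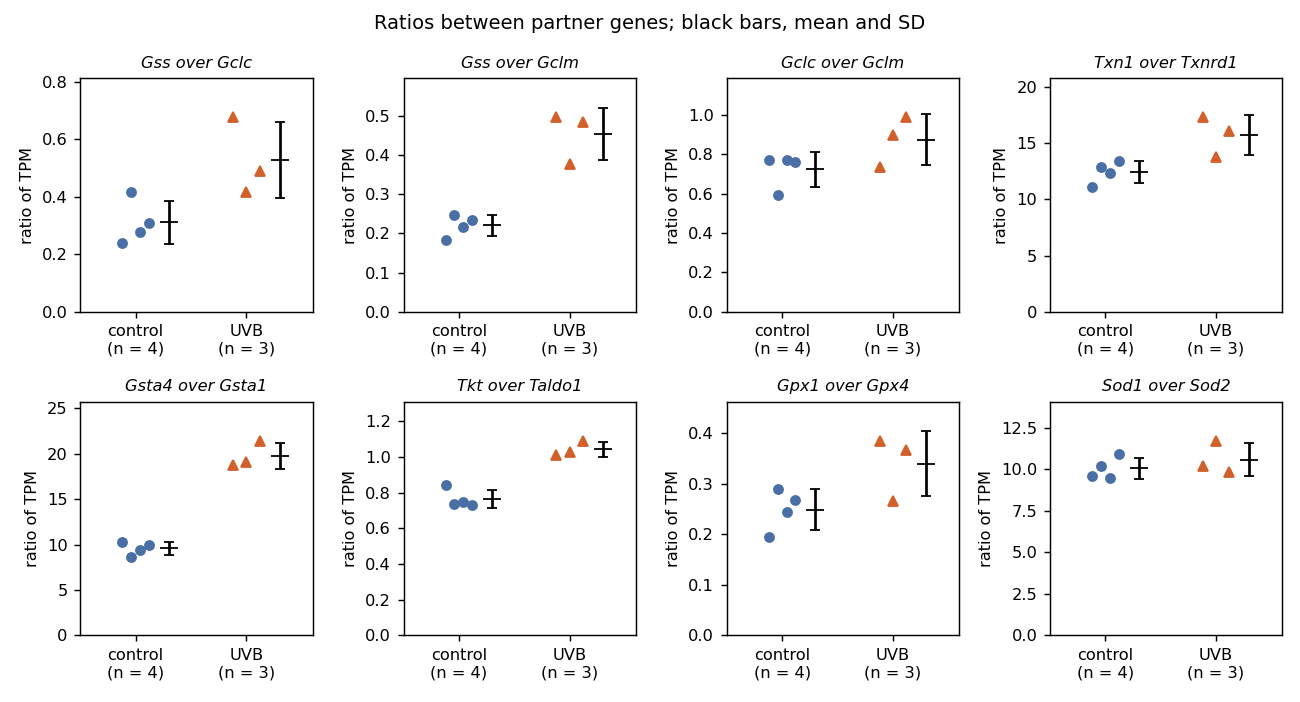
Each panel gives the ratio of TPM of 2 partner genes in every library (circles, 4 controls; triangles, 3 UVB libraries), with the mean and SD as black bars and axes from 0. The groups stand apart for Gss over Gclm, Gsta4 over Gsta1 and Tkt over Taldo1. They nearly touch for Gss over Gclc and lie close for Txn1 over Txnrd1. They overlap for Gclc over Gclm, Gpx1 over Gpx4 and Sod1 over Sod2.

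The glutathione transferases, which attach glutathione to electrophiles, went in both directions. Of 8 analysed, 2 were higher, 1 was lower and 5 did not pass, with a median log2 fold change of 0.085, or 0.036 without control d and 0.15 without UVB a. Gstm1, of the mu class, measured 41.0, 34.7, 43.6 and 43.1 TPM in the controls and 69.7, 79.5 and 59.7 TPM after UVB. The groups did not overlap and the log2 fold change was 0.76 (edgeR SE 0.11 and adjusted p = 0.00458), a fold of 1.69. Gsta4, the alpha class enzyme with high activity towards 4-hydroxynonenal, a product of lipid peroxidation, measured 154, 168, 161 and 158 TPM in the controls and 208, 249.7 and 273 TPM after UVB. It also stood apart, with a log2 fold change of 0.60 (SE 0.090, adjusted p = 0.00594). Its count was fractional in 1 library.

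Gsta1, a second gene of the alpha class, fell. It measured 15, 19.5, 17.2 and 15.8 TPM in the controls and 11.1, 13.1 and 12.8 TPM after UVB, every UVB library below every control. Its log2 fold change of -0.45 (edgeR SE 0.13 and adjusted p = 0.0492) was just past the threshold. The call was lost in 13 of 20 alternatives, including the fits without control b (adjusted p = 0.116), control c (0.107), control d (0.0908), UVB a (0.124), UVB b (0.0765) or UVB c (0.0933). Its counts were fractional in 4 libraries, and the alpha and mu classes are families of similar genes, so reads may have been split among them. The TPM ratio of Gsta4 to Gsta1 was 9.57 ± 0.749 (SD, n = 4) in the controls, and after UVB it was 19.8 ± 1.42 (SD, n = 3).

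The other 5 transferases did not pass. Mgst1, a membrane enzyme of microsomes and mitochondria, was the most abundant of all 35 genes, at 1867 ± 113 TPM (SD, n = 4) in controls and 1875 ± 148 TPM (SD, n = 3) after UVB. The difference on the log2 scale was 0.0015 (edgeR SE 0.088 and adjusted p = 0.994), with a sign that varied between settings. It made 74.2% to 77.6% of the summed TPM of the 8 transferases in the controls and 70.6% to 74.4% after UVB. Gstp1, of the pi class, was at 183 ± 16.2 TPM and 186 ± 41.3 TPM (log2 fold change 0.0088, SE 0.13, adjusted p = 0.974). Its UVB libraries spread from 151 TPM in UVB b to 231 TPM in UVB a, and its value was -0.17 without UVB a. Gsto1 of the omega class had a log2 fold change of 0.090 (SE 0.073), and Gstt1 of the theta class one of 0.080 (SE 0.18), or -0.025 without UVB c. Gstm4, next to Gstm1 in class, was at 11.7 ± 2.09 TPM (SD, n = 4) in controls and 15.7 ± 1.40 TPM (SD, n = 3) after UVB. It overlapped between groups through control b (log2 fold change 0.42, SE 0.14, adjusted p = 0.0793) and passed without control b (0.55, adjusted p = 0.0241).

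In the thioredoxin system, electrons pass from NADPH through a reductase to thioredoxin and on to peroxiredoxins, which reduce peroxides. One of 6 analysed genes rose. Txn1, cytosolic thioredoxin, measured 442, 437, 452 and 478 TPM in the controls and 649, 664 and 647.5 TPM after UVB. The UVB libraries were tightly grouped and far above the controls. The log2 fold change was 0.53 (edgeR SE 0.059 and adjusted p = 0.0023), a fold of 1.44, and it passed in all 20 alternatives. Txnrd1, the reductase that serves it, measured 39.9, 33.9, 36.8 and 35.7 TPM in the controls and 37.5, 48.2 and 40.2 TPM after UVB. Only UVB b and UVB c exceeded the highest control, and the log2 fold change was 0.19 (SE 0.10, adjusted p = 0.227), or 0.073 without UVB b. The ratio of Txn1 to Txnrd1 in TPM was 12.4 ± 0.995 (SD, n = 4) in the controls, and after UVB it was 15.7 ± 1.79 (SD, n = 3). Its groups lay close, with control d at 13.4 and UVB b at 13.8.

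The 4 peroxiredoxins analysed did not pass. Prdx3, the mitochondrial form, was at 85.8 ± 6.49 TPM (SD, n = 4) in controls and 98.4 ± 4.55 TPM (SD, n = 3) after UVB, groups that did not overlap (log2 fold change 0.20, edgeR SE 0.070 and adjusted p = 0.0985). The cytosolic Prdx1 (0.18, SE 0.088, adjusted p = 0.214) and Prdx2 (0.058, SE 0.057, adjusted p = 0.536) had overlapping groups, as did Prdx5, found in mitochondria and peroxisomes (-0.13, SE 0.081, adjusted p = 0.323). Prdx5 was -0.044 without UVB c, the library with its lowest value, 839 TPM. Counts of Prdx1 and Prdx5 were fractional in every library. Prdx5 and Prdx1 were abundant, at 1052 and 965.8 TPM on average in controls.

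Glutathione peroxidases reduce peroxides with glutathione and carry selenocysteine in most members. Of 4, 3 rose. Gpx2, the epithelial form and an NRF2 target, measured 53.0, 38.4, 42.8 and 62.6 TPM in the controls and 101, 77.6 and 116 TPM after UVB. It had the largest log2 fold change of the 12 higher genes, 0.99 (edgeR SE 0.19 and adjusted p = 0.0163), a fold of 1.98, without overlap, and it passed in all 20 alternatives. The cytosolic Gpx1 measured 99.0, 134, 119 and 119 TPM in the controls and 183, 139 and 159 TPM after UVB. UVB b was just above control b, and the log2 fold change was 0.44 (SE 0.11, adjusted p = 0.0294). Leaving out a library ended its call for control c (adjusted p = 0.0766), control d (0.0670), UVB a (0.0838) or UVB c (0.0653).

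Gpx3, the secreted form, measured 44.2, 53.2, 58.0 and 55.7 TPM in the controls and 64.0, 62.7 and 63.7 TPM after UVB. The UVB libraries were close together above the highest control, with a log2 fold change of 0.32 (edgeR SE 0.088 and adjusted p = 0.0436). The call was lost in 12 of 20 alternatives, among them the fits without control b (adjusted p = 0.0938), control c (0.0625), control d (0.0602), UVB a (0.0947), UVB b (0.0901) or UVB c (0.10), and its counts were fractional in 6 libraries. Gpx4, which reduces lipid hydroperoxides in membranes and restrains ferroptosis, measured 509, 464, 485 and 444 TPM in the controls and 476, 524 and 431 TPM after UVB. The groups overlapped (log2 fold change -9.1e-05, SE 0.084, adjusted p = 0.999). The TPM ratio of Gpx1 to Gpx4 ran from 0.194 to 0.290 in the controls and from 0.266 to 0.385 with UVB, and the groups overlapped. Gpx4 made 65.2% to 72.2% of the summed TPM of the 4 peroxidases in the controls and 56.1% to 65.2% after UVB.

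The superoxide dismutases, which turn superoxide into hydrogen peroxide, rose in all 3 members. Sod1, the cytosolic copper and zinc enzyme, measured 576, 562, 556 and 593 TPM in the controls and 731, 824 and 669 TPM after UVB (log2 fold change 0.37, edgeR SE 0.084 and adjusted p = 0.0223). Sod2, the mitochondrial manganese enzyme, measured 59.9, 55.4, 58.7 and 54.4 TPM in the controls and 72.0, 70.2 and 68.1 TPM after UVB (0.29, SE 0.057, adjusted p = 0.0133). Sod3, the extracellular enzyme, measured 18.6, 19.95, 21.8 and 23.2 TPM in the controls and 34.8, 26.5 and 29.8 TPM after UVB (0.53, SE 0.10, adjusted p = 0.0123). The groups of all 3 were apart. The call of Sod1 was lost without control b (adjusted p = 0.0536) or control c (0.0659), while Sod2 and Sod3 passed in all 20 alternatives. The TPM ratio of Sod1 to Sod2 overlapped between groups, at 9.49 to 10.9 in the controls and 9.83 to 11.7 after UVB.

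The pentose phosphate pathway supplies NADPH to the reductases, and its non-oxidative branch exchanges sugar phosphates through transketolase and transaldolase. Tkt, transketolase, measured 774, 729, 719.97 and 641 TPM in the controls and 873, 984 and 924 TPM after UVB. All UVB libraries were above all controls (log2 fold change 0.38, edgeR SE 0.088 and adjusted p = 0.0241). Leaving out a library ended the call for control c (adjusted p = 0.0711), control d (0.0640), UVB b (0.0676) or UVB c (0.0611). Taldo1, transaldolase, was at 936.0 ± 50.8 TPM (SD, n = 4) in controls and 892 ± 57.9 TPM (SD, n = 3) after UVB, with overlapping groups (-0.074, SE 0.077, adjusted p = 0.562). In each control Taldo1 exceeded Tkt, with a ratio of Tkt to Taldo1 from 0.734 to 0.843, and in each UVB library Tkt exceeded Taldo1, from 1.01 to 1.09.

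Ferritin stores iron in a shell of heavy and light chains. Fth1, the heavy chain, measured 1477 ± 132 TPM (SD, n = 4) in controls and 1692 ± 22.8 TPM (SD, n = 3) after UVB, and it did not pass although its groups did not overlap (log2 fold change 0.19, edgeR SE 0.079 and adjusted p = 0.139). Ftl1, the light chain, was listed at only 1.02 to 2.25 TPM in the controls and 0.600 to 1.01 TPM after UVB (-1.11, SE 0.39, adjusted p = 0.0886). Both had fractional counts in every library, and GRCr8 lists 22 genes whose symbol begins with Ftl1 and 7 with Fth1. Reads of near-identical copies could be split among them, so neither level is certain.

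**Figure D3:**
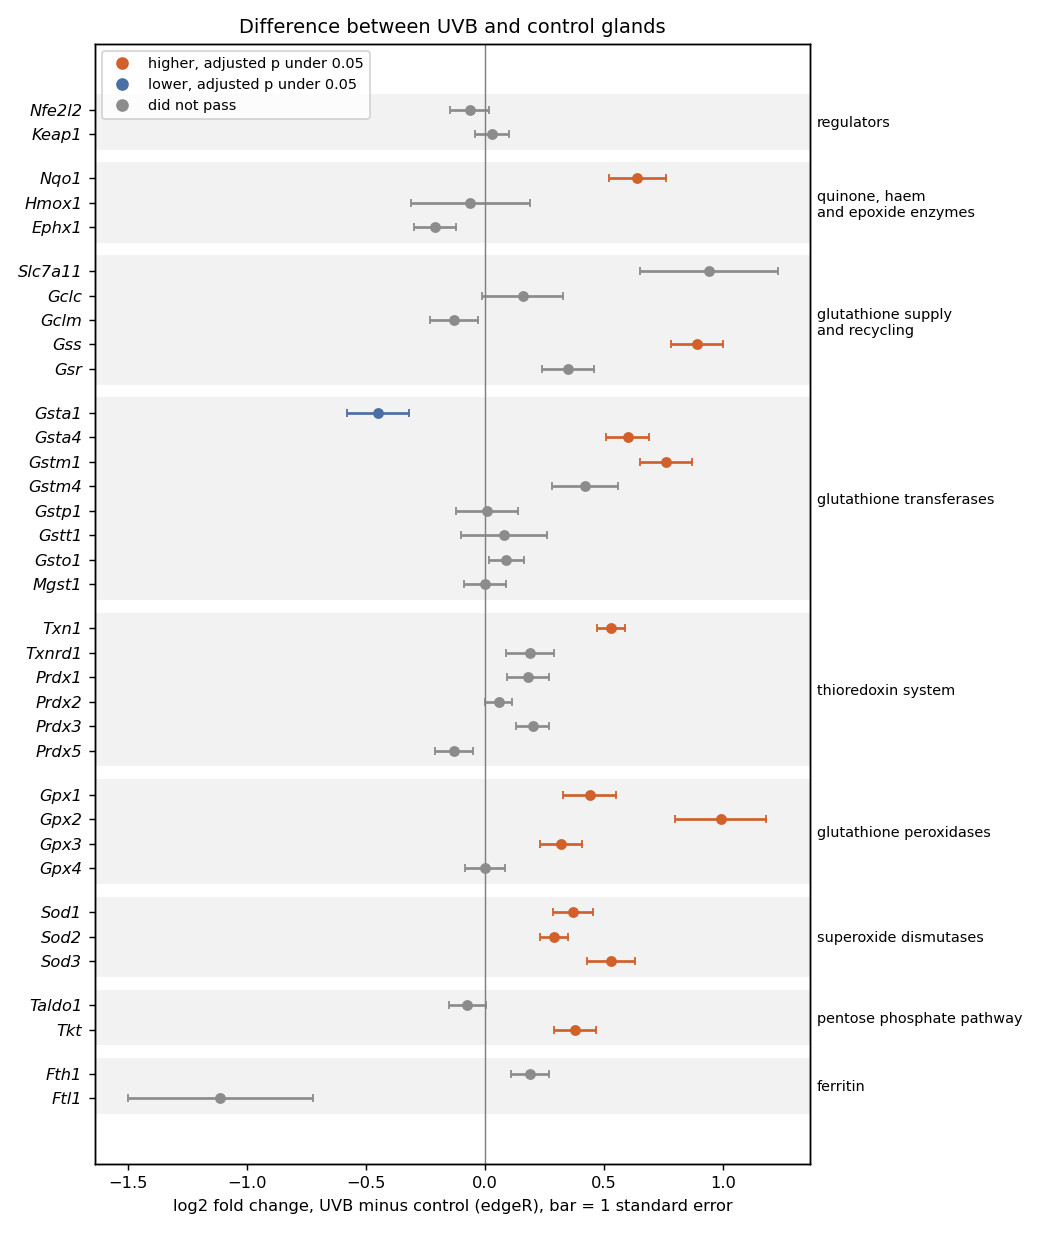
The log2 fold change of each of the 35 genes (edgeR, UVB minus control) is a point with a bar of 1 standard error, in orange where the gene was higher, in blue where it was lower and in grey where it did not pass. The 12 orange points lie between 0.29 and 0.99, and the only blue point is Gsta1 at -0.45.

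In order of level, the controls were led by Mgst1, Fth1, Prdx5, Prdx1, Taldo1, Tkt and Sod1, and 14 of the 35 genes averaged above 100 TPM. Of the 34 pairs of neighbours in this order, 22 overlapped between their control libraries. After UVB, Gpx2 moved from rank 24 to 16, Nqo1 from 25 to 17 and Gstm1 from 26 to 19. Over the UVB libraries, UVB b held the highest TPM of the 3 for 20 of the 35 genes. Summed over the 35, TPM ran from 10273 to 10673 in the controls and from 11187 to 12110 after UVB.

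**Figure D4:**
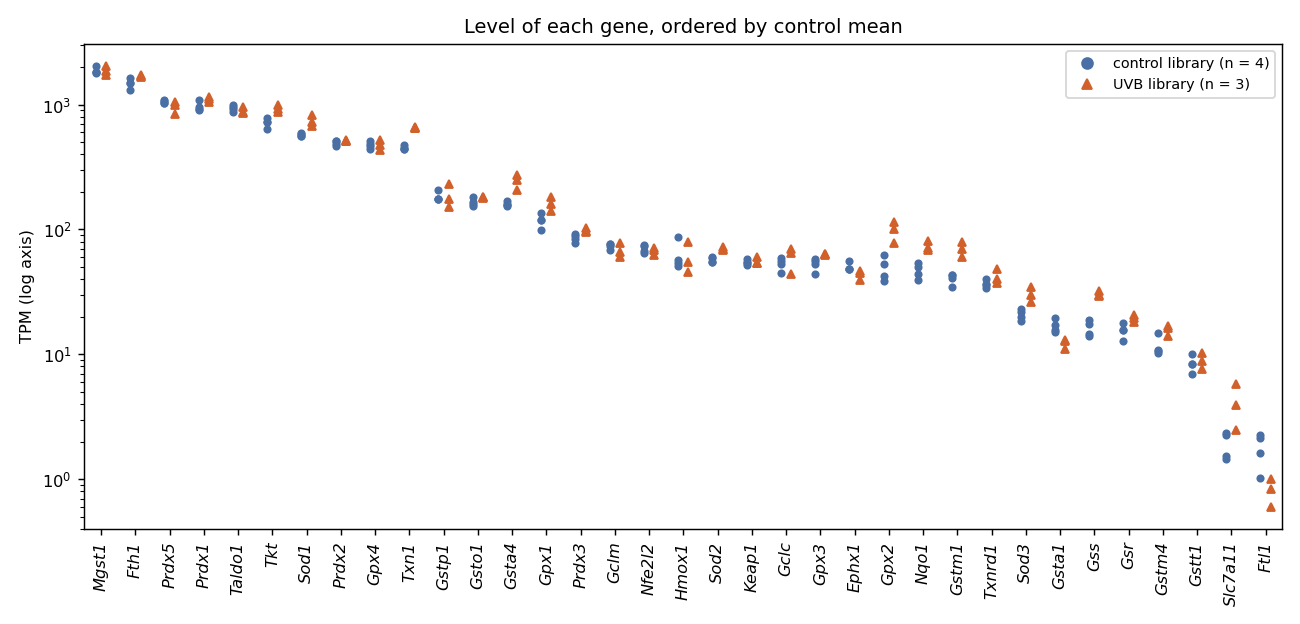
The level of each gene in TPM (log axis) is given for every library, circles for the 4 controls and triangles for the 3 UVB libraries, with genes ordered from left to right by their control mean. Levels run from Mgst1, near 1867 TPM in controls, to Ftl1, at 1.02 to 2.25 TPM, and the triangles of Txn1 stand clear of its circles.

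Other genes of the same pathways, 8 lists from general knowledge, were read from the same fit. Of 118 tested, 8 were higher and 8 lower, 13.6% in all, beside 13.0% of all genes. Of 23 further NRF2 partners, repressors and targets, 2 were higher and 3 lower. Ptgr1, which reduces lipid aldehydes and prostaglandins, rose from 94.4 to 135 TPM in the controls to 171 to 199 TPM after UVB, a log2 fold change of 0.65 (edgeR SE 0.12 and adjusted p = 0.0124). Aldh3a1, an aldehyde dehydrogenase best known as a corneal crystallin, fell from 394 ± 39.8 TPM (SD, n = 4) to 218 ± 28.9 TPM (SD, n = 3), by 0.86 on the log2 scale (SE 0.11, adjusted p = 0.00303). Nfe2l3, a relative of NRF2, fell from 9.86 ± 1.33 to 5.86 ± 0.986 TPM (-0.76, adjusted p = 0.0133). Tfe3 (0.31) and Abcc1 (-0.29, fractional in every library) complete the 5 and are named after their values were seen. Each lost its call in 6 of 20 alternatives, Tfe3 without control b, c or d or UVB b or c (adjusted p up to 0.110) and Abcc1 without control a, b or c or UVB a or c (up to 0.0976).

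Of 10 further glutathione transferases 1 was higher, Mgst2, another membrane enzyme, at 70.5 to 89.0 TPM in the controls and 106 to 125 TPM after UVB, a log2 fold change of 0.54 (edgeR SE 0.094 and adjusted p = 0.00871). Of 17 further genes of glutathione supply and handling, the glyoxalase Glo1 was higher (0.27, SE 0.050, adjusted p = 0.0115) and the dipeptidase Dpep1 lower (-0.49, SE 0.092, adjusted p = 0.0115). Of 19 further thioredoxin and glutaredoxin genes, none was higher and 2 were lower. Txnip, which binds and inhibits thioredoxin, fell from 217 ± 54.6 TPM (SD, n = 4) to 125 ± 4.99 TPM (SD, n = 3), by 0.79 on the log2 scale (SE 0.18, adjusted p = 0.0278). Leaving out a library ended its call for control c (adjusted p = 0.0633), UVB a (0.0810), UVB b (0.0869) or UVB c (0.0566). Msra, a methionine sulfoxide reductase, fell by 0.55 (SE 0.14, adjusted p = 0.0332) and lost its call without control a (adjusted p = 0.0597), control c (0.0818), control d (0.0741), UVB b (0.0988) or UVB c (0.0981).

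Of 16 genes in the list of catalase, further peroxidases and oxidases, Pxdn, a peroxidase that crosslinks collagen IV, was higher (0.57, edgeR SE 0.095 and adjusted p = 0.00784). Nox1, a superoxide-producing oxidase named here after its value was seen, was lower at 1.06 and 0.473 TPM on average (-1.28, adjusted p = 0.0223), with fractional counts in every library. It lost its call without control d (adjusted p = 0.0578), UVB b (0.0739) or UVB c (0.0531). Of 14 further pentose phosphate and NADPH genes, the lactonase Pgls was higher (0.21, adjusted p = 0.0330) and the sedoheptulose kinase Shpk lower (-0.75, adjusted p = 0.0300). Pgls lost its call without any single library but control a (adjusted p 0.0656 to 0.0869), and Shpk without control b (0.0692), control c (0.0791) or control d (0.0664).

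Of 16 genes of iron and haem handling, 1 was higher. This was the metalloreductase Steap4, which measured 8.59, 8.95, 8.47 and 8.90 TPM in the controls and 14.7, 13.7 and 15.9 TPM after UVB (0.75, edgeR SE 0.081 and adjusted p = 0.00187). Of 3 metallothioneins tested, the metal-binding Mt2A rose from 249, 192, 251.31 and 176 TPM in the controls to 367, 355 and 372 TPM after UVB (0.74, SE 0.12, adjusted p = 0.00823). Steap4, Mt2A, Ptgr1, Aldh3a1, Nfe2l3, Mgst2, Glo1, Dpep1 and Pxdn passed in all 20 alternatives.

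**Figure D5:**
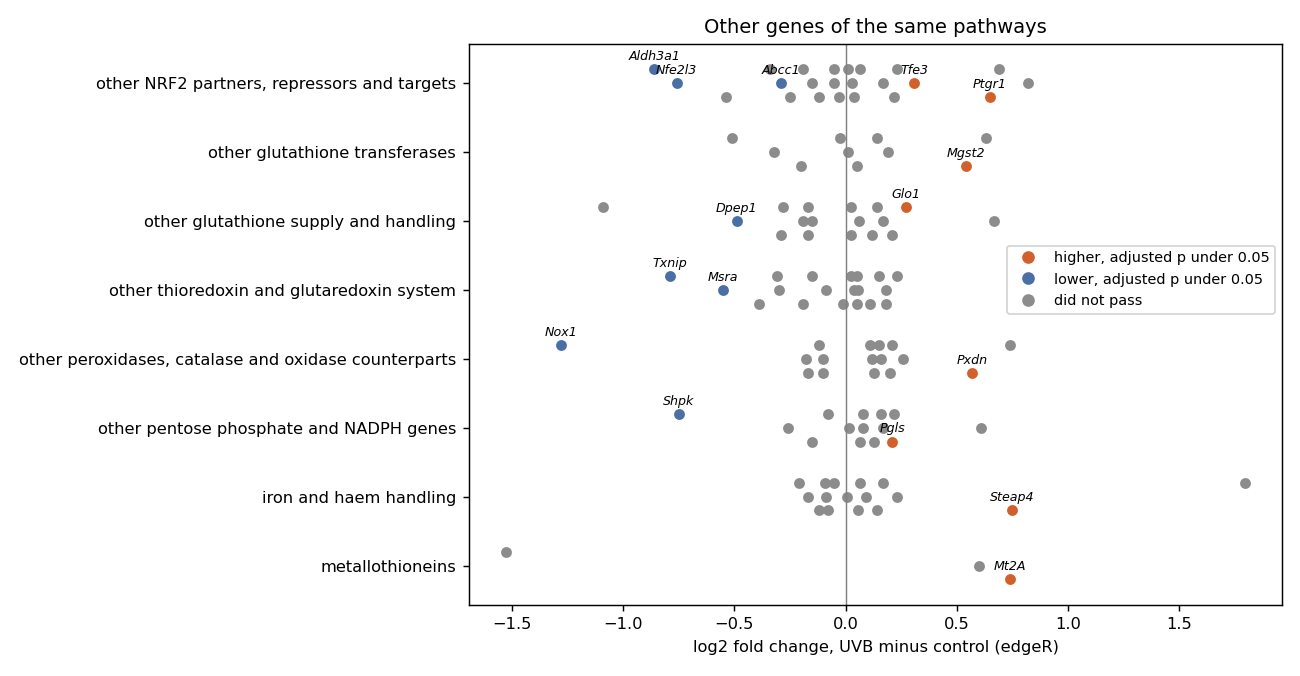
Each point is the log2 fold change (edgeR, UVB minus control) of 1 of the 118 further pathway genes tested, in 8 lists, in orange where higher, in blue where lower and in grey where it did not pass; the vertical offset within a list has no meaning. The 16 coloured genes are named, from Nox1 at -1.28 to Steap4 at 0.75.

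Library totals ran from 20680237 to 28784941 counts. All 10 markers of lipid-making meibocytes were detected, at a summed 43985 to 53171 TPM in the controls and 39945 to 46481 TPM after UVB, with 3 of 10 lower. Of 62 markers tested, 19 were higher and 4 lower, 37.1% in all. This stands beside 13.0% of all genes and 37.1% of the 35 antioxidant genes. Summed marker levels did not overlap between groups, and were higher after UVB, for 5 of 12 lists. These were basal keratinocytes (8109 to 10332 TPM against 10579 to 11685, 3 of 6 tested higher), endothelium (45.9 to 55.5 against 57.6 to 63.7, 3 of 5), mast cells (20.34 to 28.97 against 35.0 to 37.6, 2 of 5, with Mcpt1 at 0), neutrophils (1579 to 1776 against 1840.5 to 2115, 2 of 3) and lacrimal or salivary acini (7.47 to 8.42 against 9.65 to 12.6, 1 of 3). The rise of the basal keratinocyte sum came mostly from Krt14, at 5279 TPM on average in the controls and 7338 TPM after UVB. Itga6 and Itgb4 were also higher. Krt5, at 3564 and 3529 TPM, did not pass, nor did Col17a1 and Tp63. The mast cell sum was mostly Kit, at 17.8 TPM on average in controls and 23.2 TPM after UVB, which did not pass. Cpa3 (1.93 and 4.08 TPM) and Tpsab1 (1.12 and 3.73 TPM) were higher. The neutrophil sum was carried by S100a8 and S100a9, which keratinocytes also make. Csf3r, the receptor for granulocyte colony-stimulating factor, averaged 0.120 TPM in the controls and 1.12 TPM after UVB, without overlap (log2 fold change 3.16, edgeR adjusted p = 0.00608). Ngp and Camp had at most 3 counts in any library. The sums of the others overlapped: macrophages (177 to 499 and 207 to 347 TPM, 4 of 9 higher), fibroblasts (895.5 to 1402 and 1176 to 1900, 3 of 5 higher), differentiated keratinocytes (4511 to 5431 and 4648 to 7167, 1 of 6 lower), T cells (4.32 to 5.65 and 2.97 to 7.99, 1 of 3 higher), muscle (2089 to 2928 and 1416 to 2563, none of 5) and erythroid cells (1.40 to 2.55 and 1.41 to 2.25, none of 2). The part of these shifts in the differences of the antioxidant genes was not tested.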

How the data were processed

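RNA of meibomian gland was sequenced in 7 libraries (4 control, 3 UVB). Per the submitters' processing notes, FastQC, Trimmomatic, DRAGEN, Picard and the rn7 build were used. Annotation, counting and strand handling are not given in the sources used here. The authors deposited expected counts, 12.5% of them not whole, and TPM values, whose sums were 82.0% to 84.1% of the total that TPM has by definition. Gene names hold unquoted commas, so each row was split from its right end for the 7 values, and 5 rows per table were left out. Count to TPM ratios were checked in 11951 genes, of which 10 were off by over 1.5 times in any library. Columns give the group and a number of unstated meaning, not the labels' replicate, so letters a to d name libraries and pair none. Replicates differed by more than sampling noise in every pair (chi-square per degree of freedom at least 10.9).

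Counts were rounded and fitted over the whole table in edgeR 4.0.16 (R 4.3.3; quasi-likelihood, robust, TMM factors, filterByExpr by group). Two-sided p-values were adjusted by Benjamini-Hochberg over 13709 genes, with a threshold of 0.05. The design had assumed raw counts, and the same test was kept. SE is the absolute log2 fold change over the square root of F. The fit was tested on simulated data. Other fits used limma-voom with or without quality weights (limma 3.58.1), DESeq2 1.42.0, and other scalings and filters. Further fits used log2(TPM + 1) at a mean of at least 1 TPM or unfiltered, and log2(TPM + 0.1) at that mean only. Each library was also left out, and a fit of unrounded counts was added after seeing the data. All members are accounted for. From each further list the called genes with a mean count of at least 50 are named, up to the 3 with the smallest p. Members and lists were chosen with earlier results of these data known. Of 137 further pathway genes listed, 124 were analysed (1 more is not reported here), and of 83 markers, 68. Promoter letters are from RefSeq, GRCr8, matched by gene ID.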

Additional observations from a re-analysis of the deposited data

Results flagged for a closer look

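For 5 of 35 genes, 1 control library lay far from the remaining 3, where a rate of 1 in 20 gives about 1.8. Control a stood apart for Hmox1, at 86.9 TPM against 50.9 to 56.5 TPM (the gap was 0.846 of the range), and for Mgst1, at 2035 TPM against 1786 to 1825 TPM (0.845). Control b stood apart for Ephx1, at 56.0 TPM against 47.8 to 48.5 TPM (0.917), for Gstp1, at 207 TPM against 174 to 177 TPM (0.916), and for Gstm4, at 14.8 TPM against 10.3 to 10.9 TPM (0.857). None of the 5 genes passed the test between groups, and Gstm4 passed without control b (log2 fold change 0.55, edgeR adjusted p = 0.0241). The 3 UVB libraries were not compared among themselves, being too few.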

How the results depend on the processing

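No paired analysis was possible because the table headers give each library a group but none of the labels' replicate numbers. Of the 13 genes past the threshold, 8 passed in all 20 alternatives and 5 (Gsta1, Gpx1, Gpx3, Sod1, Tkt) lost the call in at least 1; none changed sign. Of the other 22, 3 gained a call: Slc7a11, Gsr and Gstm4, all under DESeq2. Slc7a11 also gained it under limma-voom with quality weights (log2 fold change 1.06, adjusted p = 0.0404) and without UVB a. Gsr and Gstm4 also gained it without control b. The count of 13 was 4 at an adjusted p under 0.01, stricter by construction, and 8 to 13 across the fits that left out a library, lowest without control c; the higher genes numbered 8 to 12 there. The lower gene was lost (0 lower) under limma-voom, upper quartile factors, DESeq2 size factors, no scaling beyond library size, no filter, log2(TPM + 1) without a filter, unrounded counts and in 6 of 7 fits that left out a library (0 to 1). Over all genes, 1787 passed, 1137 under log2(TPM + 1) without a filter, 383 at 0.01 and 851 to 1898 with a library left out; the cause was not tested. With a library left out, role medians ran from -0.22 to 0.15 for quinone, haem and epoxide enzymes, 0.036 to 0.15 for glutathione transferases, 0.10 to 0.23 for the thioredoxin system, -0.071 to 0.031 for the regulators, 0.094 to 0.20 for the pentose phosphate genes and 0.28 to 0.45 for superoxide dismutases. The ferritin median of -0.46 was 0.19 with a mean count of at least 50, which drops Ftl1, and -0.19 under log2(TPM + 1) with or without a filter. The promoter share of 34.5% was 13.8% with the longer core, while the share of all windows was 12.1% and 3.00%.

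Signs changed for 6 genes that did not pass in any setting. Gpx4 was 0.0070 under DESeq2, 0.0050 with its size factors, 0.0026 with upper quartile factors, 0.00085 with library size alone, 0.0031 without a filter, 0.0017 in the 3 TPM fits, 0.0033 with unrounded counts and -0.087 to 0.073 with a library left out. Gstp1 was -0.0086 under limma-voom, -5.1e-05 under log2(TPM + 1) with or without a filter, -0.00014 under log2(TPM + 0.1) and -0.17 to 0.13 with a library left out. Mgst1 was -0.0014 under limma-voom, -0.0035 with a mean count of at least 50 and -0.072 to 0.059 with a library left out. Hmox1 was 0.071 under limma-voom with quality weights and -0.31 to 0.15 with a library left out. Over the same fits Keap1 ran from -0.028 to 0.073 and Gstt1 from -0.025 to 0.19.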
